A study of Mus musculus with 6 samples.

Results

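The genes described here are 10 components of signalling by leukemia inhibitory factor (LIF) and interleukin-6 (IL-6): the ligands Lif, Il6 and Il11, the receptor chains Il6st, Lifr and Osmr, the transcription factor Stat3, and the inhibitors Socs2, Socs3 and Cish. They were taken by gene symbol from 25001 loci, of which 22601 carried a symbol, and each of the 10 was found at 1 locus. RNA was sequenced from 427.1.86 cells (427 cells), a mouse thymoma line that makes the membrane serine protease epithin/PRSS14, with 1 library for each of 6 conditions. Control 427 cells stably carried the empty pSUPER vector and were given DMSO or 1 µM PMA, a phorbol ester that activates protein kinase C and induces shedding of epithin/PRSS14, for 2 h after 2 h without serum. Cells labelled as an SPPL2b knockdown (SP2bKD) were given DMSO or PMA in the same way, and SP2bKD cells were transfected with GFP alone or with GFP and FLAG-tagged EICD, the intracellular domain of epithin/PRSS14, and sorted for GFP. SPPL2b is the intramembrane protease studied as the source of EICD. All 4 SP2bKD libraries are labelled as siRNA-treated, whereas the methods describe an shRNA in pSUPER, single-cell clones, and a transfection of the clone SP2bKD-10. The labels do not say which clone gave the DMSO and PMA libraries.

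The knockdown label was checked against the targeted gene. Sppl2b had an FPKM (fragments per kilobase of transcript, scaled to sequencing depth) of 9.90 and 6.86 in 427 cells given DMSO and PMA, 13.4 and 9.37 in the libraries labelled SP2bKD given the same, and 11.4 and 13.2 in those transfected with GFP and GFP plus EICD. Its mRNA was thus not lower in any library labelled SP2bKD than in the 427 library with the same treatment. Within these data, every direction given below for these libraries rests on the label alone. The paper tested its knockdown clones for SPPL2b mRNA by real-time PCR, and reports less EICD in them with PMA. The Sppl2b locus shares 2204 bases with Lsm7 on the other strand, and the library kit is not described as keeping strand. Lsm7 had an FPKM of 69.5 and 74.3 in 427 cells with DMSO and PMA, and 33.6 and 60.8 in the libraries labelled SP2bKD. It was at 64.9 with GFP and 41.4 with GFP plus EICD. The part of this overlap in the Sppl2b values was not tested.

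Cytokines of the IL-6 family act through receptors that share the signal-transducing chain gp130, the product of Il6st. LIF joins gp130 to the LIF receptor (Lifr), oncostatin M joins it to its own chain (Osmr), and IL-6 and IL-11 reach it through their specific alpha chains. Janus kinases bound to these chains phosphorylate STAT3, which enters the nucleus, and SOCS proteins are induced by STATs and hold the signal back. Socs3 binds gp130 and is a standard target of STAT3, while Cish and Socs2 are standard targets of STAT5. LIF is made by epithelial cells of the thymus, among other tissues.

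The promoters were searched because PMA acts on AP-1, the factor that binds the phorbol ester response element, and because Socs3 and Cish are read as STAT targets. RefSeq windows on GRCm38.p6, from 250 bases before to 50 after each annotated start, were matched for 9 of the 10 genes, 11 windows in all, and Socs2 had no entry. Both strands were searched for AP-1 (TGANTCA), CRE (TGACGTCA), STAT (TTCNNNGAA) and a kappaB motif bound by NF-kappaB. AP-1 letters were found in 4 of the 9 genes, Lif, Il6, Il11 and Osmr, that is in 4 of the 11 windows. They were found in 7.81% of all 32851 windows. STAT letters were found in 2 genes, Socs3 and Cish, that is in 2 of the 11 windows, and in 8.30% of all windows. NF-kappaB letters were found in the window of Il6 alone among the 11 (1.63% of all windows) and CRE letters in none of them (1.79%). No 2 matches overlapped. Only windows with a match are printed, so those of Il6st, Lifr and Stat3 are not shown. The first 280 bases of each window are printed 5′ to 3′ on the gene's own strand, with the matched letters in capitals, for Lif (chr11:4257318-4257597, plus strand), Il6 (chr5:30012864-30013143, plus), Il11 (chr7:4778112-4778391, minus), Osmr (chr15:6874284-6874563, minus), Socs3 (chr11:117969337-117969616, minus) and Cish (chr9:107296409-107296688, plus).
Lif: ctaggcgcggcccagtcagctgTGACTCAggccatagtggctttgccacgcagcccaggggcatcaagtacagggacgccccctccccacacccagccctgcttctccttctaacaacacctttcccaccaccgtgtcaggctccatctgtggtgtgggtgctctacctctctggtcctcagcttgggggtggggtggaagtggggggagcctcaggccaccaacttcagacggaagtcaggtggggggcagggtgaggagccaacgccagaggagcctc
Il6: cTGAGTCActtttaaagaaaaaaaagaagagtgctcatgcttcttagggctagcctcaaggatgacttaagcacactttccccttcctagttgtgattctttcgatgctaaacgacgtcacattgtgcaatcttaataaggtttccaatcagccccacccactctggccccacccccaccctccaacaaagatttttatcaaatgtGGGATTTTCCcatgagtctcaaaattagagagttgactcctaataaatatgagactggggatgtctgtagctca
Il11: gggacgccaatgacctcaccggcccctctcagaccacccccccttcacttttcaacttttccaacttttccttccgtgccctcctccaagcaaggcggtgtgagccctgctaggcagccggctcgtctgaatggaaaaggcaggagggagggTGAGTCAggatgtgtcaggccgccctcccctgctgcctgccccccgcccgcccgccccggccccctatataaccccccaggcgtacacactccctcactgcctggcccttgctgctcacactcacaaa
Osmr: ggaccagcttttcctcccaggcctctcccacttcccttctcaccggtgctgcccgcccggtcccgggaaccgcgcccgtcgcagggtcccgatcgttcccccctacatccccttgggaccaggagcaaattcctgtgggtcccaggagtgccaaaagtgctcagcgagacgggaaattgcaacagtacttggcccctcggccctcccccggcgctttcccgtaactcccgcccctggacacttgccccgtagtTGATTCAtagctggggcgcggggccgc
Socs3: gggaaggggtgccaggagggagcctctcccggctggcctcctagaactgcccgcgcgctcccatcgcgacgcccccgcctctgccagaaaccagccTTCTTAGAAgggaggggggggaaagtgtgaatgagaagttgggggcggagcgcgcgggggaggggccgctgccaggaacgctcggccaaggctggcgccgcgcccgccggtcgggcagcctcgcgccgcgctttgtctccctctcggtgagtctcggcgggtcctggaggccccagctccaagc
Cish: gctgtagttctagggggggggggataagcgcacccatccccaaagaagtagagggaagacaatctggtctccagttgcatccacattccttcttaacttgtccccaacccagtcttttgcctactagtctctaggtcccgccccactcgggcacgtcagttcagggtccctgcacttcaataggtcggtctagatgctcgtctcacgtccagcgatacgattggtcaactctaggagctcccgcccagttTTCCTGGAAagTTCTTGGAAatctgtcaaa
In Lif the AP-1 letters began 228 bases before the start, in Il6 249 bases and in Il11 98 bases before it, and in Osmr at base 4 after it. In Socs3 the STAT letters began 154 bases before the start. Cish held a pair of STAT matches, at bases 1 and 12. Such matches describe letters in a window and not bound sites, and starts outside the 11 windows were not searched. The other windows, among them another start of Il11, held none of the motifs.

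By the steps between the lowest FPKM values, the libraries held an estimated 25261600 to 28568800 fragments, and 10555 to 10873 loci reached an FPKM of 1 in each. Epithelial markers were abundant, with a summed FPKM of 2470.4 to 4312.6 over the 6 found of 7, of which Krt19 stayed under 1. Most of the sum was Krt14, at 2154 and 1960.5 in 427 cells with DMSO and PMA. Krt14 was at 1784.5 and 1355 in the libraries labelled SP2bKD, 3820 with GFP and 2456 with GFP plus EICD. Krt8 went the other way between the lines, at 80.1 and 136.3 in 427 cells and 310.8 and 403.02 in SP2bKD with DMSO and PMA. It was at 142.8 with GFP and 70.2 with GFP plus EICD, a log2 fold change of -1.02, and Krt18 was at 71.6 and 171.0 in 427 cells with DMSO and PMA, one of 1.26. T lineage markers summed to 0.0304 to 0.340 over 6 found, with Cd3e and Cd4 listed at 0 in every library, and the part of these markers in the results below was not tested. Fibroblast markers summed to 0.185 to 0.501 and endothelial markers to 0.0408 to 0.282. The macrophage list summed to 6.98 to 12.1, with Adgre1 listed at 0 throughout. St14, which encodes epithin/PRSS14 and shares sequence with the construct, was at 69.6 FPKM with GFP and 614.5 with GFP plus EICD. With 1 library per condition no test across genes was possible, so a log2 fold change describes 2 libraries. Its 95% interval was computed from estimated fragments (Clopper-Pearson) and covers counting error only. In bulk RNA, fewer cells that express a gene and less RNA per cell cannot be told apart.

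Lif, the ligand that binds LIFR with gp130 (GRCm38, chromosome 11, 4257557 to 4272514, plus strand, 4 exons), was the most variable of the well-expressed genes. Its FPKM was 11.9 in 427 cells with DMSO and 128.7 with PMA, 6.40 and 49.3 in the libraries labelled SP2bKD, 21.8 with GFP and 63.05 with GFP plus EICD. Both PMA libraries stood above both DMSO libraries, and within each treatment the library labelled SP2bKD was below that of 427 cells. With PMA the level of Lif was 10.8-fold higher in 427 cells (log2 fold change 3.44, interval 3.35 to 3.52) and 7.69-fold higher in the cells labelled SP2bKD (2.94, 2.83 to 3.06). Among all loci counted, this placed Lif at rank 39 of 10643 and rank 48 of 10624 by fold increase. With EICD it was 2.89-fold higher than with GFP alone (1.53, 1.46 to 1.60), at rank 122 of 10682.

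**Figure D1:**
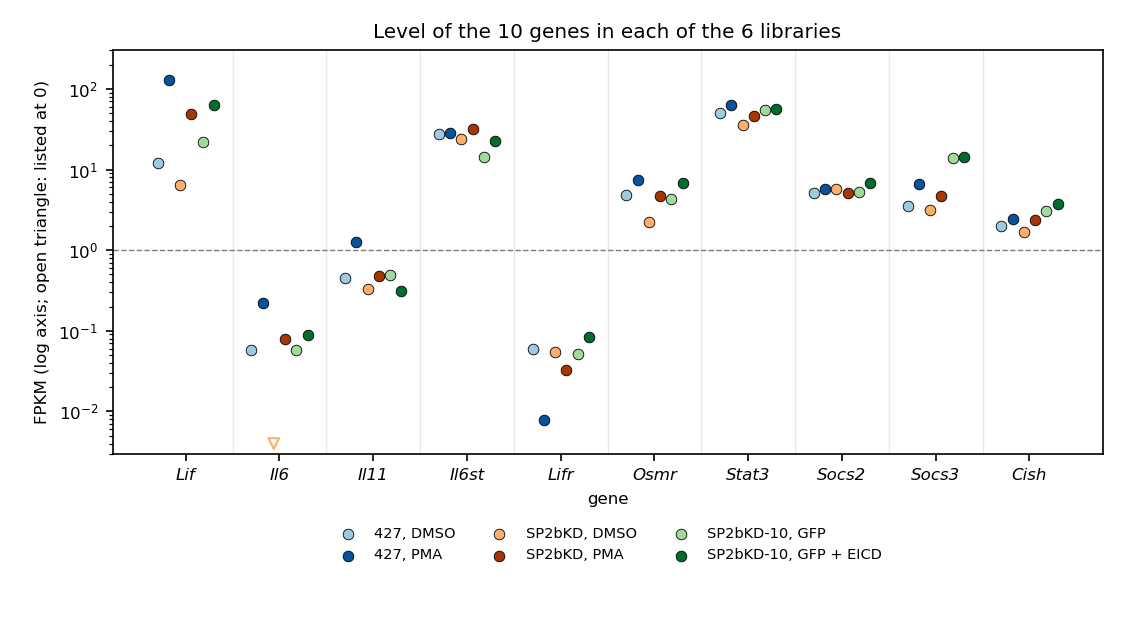
FPKM (log axis) of the 10 genes in each of the 6 libraries, 1 point per library, with the open triangle for a value listed at 0 and the dashed line at an FPKM of 1. Lif spans 6.40 to 128.7, Stat3 35.4 to 63.5, and Socs3 is highest in both transfected libraries, at 13.8 and 14.4, while Il6 and Lifr reach no more than 0.220 and 0.0839.

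Il11, a gp130 cytokine made by epithelial and stromal cells (chromosome 7, 4772373 to 4782857, minus strand), was expressed near the limit of an FPKM of 1. Its FPKM was 0.452 and 1.24 in 427 cells with DMSO and PMA, 0.333 and 0.479 in the libraries labelled SP2bKD, and 0.496 and 0.315 in the GFP and GFP plus EICD libraries. Only the 427 library with PMA exceeded 1, with an estimated 65.5 fragments against 16.3 to 26.6 in the other libraries. The PMA log2 fold change was 1.44 in 427 cells (0.73 to 2.16) and 0.51 in the cells labelled SP2bKD (-0.41 to 1.49), and intervals of this width overlap. Il11 was counted in 427 cells only through the library in which it was high, and with 1 added to both libraries its value there was 0.63.

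Il6, the cytokine that gives the family its name (chromosome 5, 30013114 to 30019981, plus strand), was close to absent. Its FPKM was 0.0576 and 0.220 in 427 cells with DMSO and PMA, 0 and 0.0793 in the libraries labelled SP2bKD, and 0.0580 and 0.0876 in the transfected libraries. These are an estimated 6.76 fragments in 427 cells with PMA and under 3 in each of the others. The ratio of PMA to DMSO in 427 cells had a log2 value of 1.76 with an interval from -0.60 to 5.10, which includes no difference. In the library labelled SP2bKD with DMSO, where Il6 is listed at 0, 3 fragments would be an FPKM of 0.102, above the value with PMA, so no PMA difference was detectable at this depth. Of the 3 ligands, Lif was thus the one with a substantial level in these cells.

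Among the receptor chains, Il6st, the shared chain gp130 (chromosome 13, 112464070 to 112510086, plus strand), was the most abundant. Its FPKM was 27.5 and 28.4 in 427 cells with DMSO and PMA, 23.8 and 31.9 in the libraries labelled SP2bKD, 14.2 with GFP and 22.9 with GFP plus EICD. The GFP library was the lowest of the 6, and the log2 fold change of EICD against GFP was 0.69 (0.63 to 0.75), below 2-fold. With PMA it was 0.05 in 427 cells, with an interval that includes 0, and 0.42 in the cells labelled SP2bKD (0.37 to 0.47). Both values stayed below 2-fold under every scaling tried.

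Osmr, the chain that pairs with gp130 for oncostatin M (chromosome 15, 6813577 to 6875257, minus strand), had an FPKM of 4.89 and 7.43 in 427 cells with DMSO and PMA, 2.25 and 4.71 in the libraries labelled SP2bKD, and 4.31 and 6.89 with GFP and GFP plus EICD. Each stimulated or EICD library was above its own reference. The PMA log2 fold change was 0.60 in 427 cells (0.47 to 0.74) and 1.06 in the cells labelled SP2bKD (0.88 to 1.26), and that of EICD was 0.68 (0.53 to 0.82). The value of 1.06 lay close to the 2-fold limit and was 0.87 when the libraries were scaled to the same sum without the 10 largest loci, and 0.81 with 1 added to both libraries.

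Lifr, the receptor chain that LIF itself needs (chromosome 15, 7129559 to 7197489, plus strand), was at the edge of detection. Its FPKM was 0.0598 and 0.00778 in 427 cells with DMSO and PMA, 0.0551 and 0.0328 in the libraries labelled SP2bKD, and 0.0511 and 0.0839 in the transfected libraries. The estimated fragments numbered 2.03 in 427 cells with PMA and 9.05 to 21.5 in the other libraries. The log2 ratio of PMA to DMSO in 427 cells was -1.97 on the scale with 0.01 added, and the interval from fragments alone ran from -6.09 to -0.82. Between the library labelled SP2bKD and that of 427 cells, both with PMA, the interval ran from -0.18 to 5.34, which includes no difference. At this depth the order of Lifr among the other 5 libraries could not be resolved either.

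Stat3 (chromosome 11, 100885098 to 100939540, minus strand) is the transcription factor that gp130 activates, and it was the most abundant of the 10 genes by FPKM in both DMSO libraries and with GFP. Its FPKM was 50.3 and 63.5 in 427 cells with DMSO and PMA, 35.4 and 45.9 in the libraries labelled SP2bKD, and 54.6 and 56.6 with GFP and GFP plus EICD. The PMA log2 fold changes were 0.34 (0.29 to 0.39) in 427 cells and 0.37 (0.32 to 0.43) in the cells labelled SP2bKD, and that of EICD was 0.05 (0.00 to 0.10). None came near 2-fold. In 427 cells with PMA, in the library labelled SP2bKD with PMA and with EICD, Lif stood above Stat3. The Stat3 locus shares 72 bases with the neighbouring Stat5a.

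The inhibitors differed in where they varied. Socs3, which binds gp130 and the kinase and shuts the signal down (chromosome 11, 117966079 to 117970047, minus strand), had an FPKM of 3.48 and 6.64 in 427 cells with DMSO and PMA, 3.19 and 4.69 in the libraries labelled SP2bKD, and 13.8 and 14.4 with GFP and GFP plus EICD. Both transfected libraries were above all 4 others. They differ from those in transfection, sorting and time, and no serum deprivation, DMSO or PMA is given for them. In the transfected libraries the summed macrophage markers were also lower (6.98 and 8.03, against 10.4 to 12.1). Of these markers Csf1r was lower in both (2.46 and 2.37, against 4.85 to 7.35), Cd68 was higher (1.96 and 2.58, against 1.25 to 1.58), Cd14 was at 2.56 and 3.07, against 2.97 to 5.78, and Adgre1 was at 0. The part of these differences was not tested. Between GFP and GFP plus EICD the log2 fold change of Socs3 was 0.07 (-0.07 to 0.20). With PMA it was 0.93 (0.70 to 1.16) in 427 cells and 0.55 (0.30 to 0.81) in the cells labelled SP2bKD, and the first was 1.04, past 2-fold, when divided by the median ratio of all loci.

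Socs2, which restrains growth hormone and STAT5 signalling (chromosome 10, 95385362 to 95417180, minus strand), had an FPKM of 5.17, 5.73, 5.74, 5.05, 5.26 and 6.85 in 427 cells with DMSO and PMA, the libraries labelled SP2bKD with DMSO and PMA, and the GFP and GFP plus EICD libraries. It was the steadiest of the 10. Cish, another STAT5-induced inhibitor (chromosome 9, 107296026 to 107302784, plus strand), had 2.01, 2.44, 1.70, 2.37, 3.04 and 3.79 in the same order. The highest value of both genes was in the GFP plus EICD library, with log2 fold changes over GFP of 0.38 (0.16 to 0.60) for Socs2 and 0.32 (0.06 to 0.57) for Cish. The Cish locus overlaps Gm17041 and Gm17040 on the other strand, and reads from these cannot be told apart here.

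Only genes that reached an FPKM of 1 in either library were counted. These were 8 of the 10 with PMA in 427 cells, and 2 of the 8 were more than 2-fold higher, Lif and Il11. Over all loci with a symbol that could be counted, 3.91% were more than 2-fold higher and 4.67% lower in that comparison. None of the 8 was more than 2-fold lower. The median of the 8 log2 fold changes was 0.47, beside a median of -0.12 over all 10643 loci, with quartiles of -0.39 and 0.14. The intervals of Il6st, Socs2 and Cish included 0, and Il11 was counted only through the library in which it was high. In the cells labelled SP2bKD, 7 genes were counted and 2 were more than 2-fold higher, Lif and Osmr, beside 3.51% of all loci higher and 5.69% lower. The median of the 7 was 0.48, beside -0.15 over all loci, with quartiles of -0.43 and 0.13. Socs2 was below 0, at -0.18 (-0.41 to 0.04). Over all loci 373 were more than 2-fold higher and 605 lower there, a split that became 489 and 409 after division by the median ratio and 283 and 965 after scaling to the same sum without the 10 largest loci. Relative to the median of the loci that reached an FPKM of 1 in both libraries, which was -0.11 in 427 cells and -0.14 in the cells labelled SP2bKD, the values of Lif were 3.54 and 3.08.

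**Figure D2:**
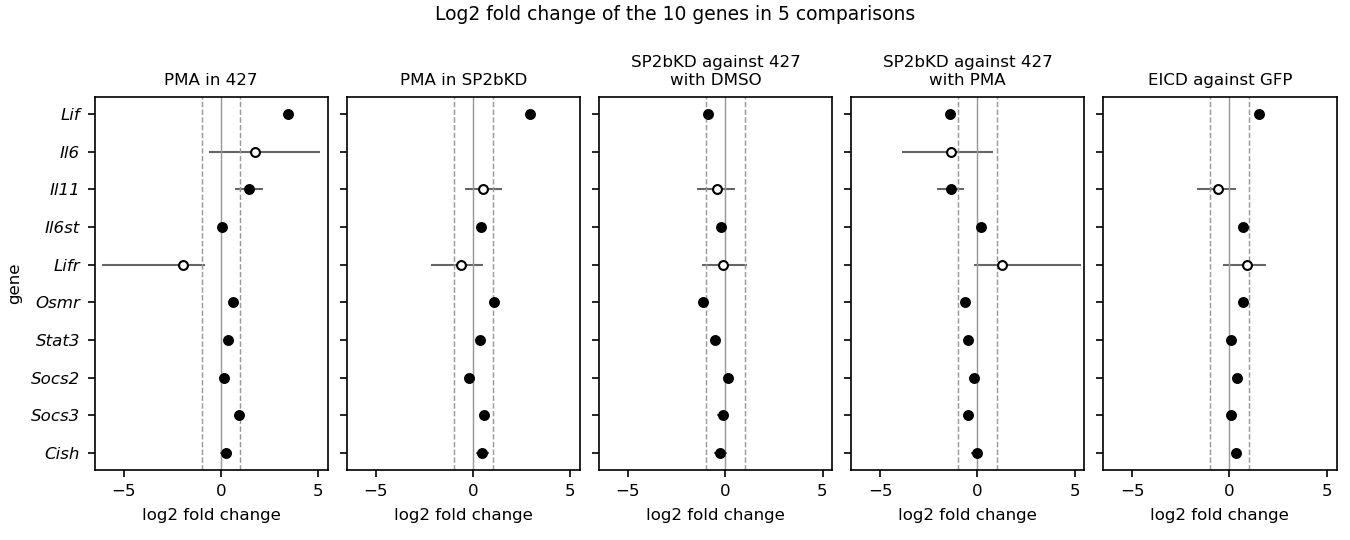
Log2 fold change of the 10 genes (points) in the 5 comparisons, with 95% intervals from estimated fragments for counting error only; open points mark genes under an FPKM of 1 in both libraries, dashed lines a 2-fold change, and a missing point a value listed at 0 or under 3 fragments in both libraries. SP2bKD stands for the libraries so labelled. Lif lies at 3.44, 2.94 and 1.53 with PMA in 427 cells, PMA in SP2bKD and EICD, while the intervals of Il6 and Lifr span several units.

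The response to PMA was also compared between the lines, in which Sppl2b mRNA was not lower under the SP2bKD label. The PMA log2 fold change of Lif in the cells labelled SP2bKD minus that in 427 cells was -0.49, that of Il11 -0.93, that of Socs3 -0.38 and that of Socs2 -0.34, whereas that of Osmr was 0.46, that of Il6st 0.38, that of Cish 0.21 and that of Stat3 0.04. The differences therefore went both ways among the genes, and that of Stat3 was -0.11 when the libraries were scaled to the same sum without the 10 largest loci. They could not be tested with 1 library per condition.

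Without PMA the library labelled SP2bKD was below that of 427 cells for most of these genes. Of 7 genes counted, 1 was more than 2-fold lower, Osmr, with a log2 fold change of -1.12 (-1.32 to -0.93), and none more than 2-fold higher. Over all loci 2.76% were more than 2-fold lower and 3.11% higher, that is 295 and 333 loci, and 238 and 444 after scaling to the same sum without the 10 largest loci, under which the value of Osmr was within 2-fold. Lif stood at -0.89 (-1.03 to -0.75) and Stat3 at -0.50 (-0.56 to -0.45). Socs2 alone of the 7 was above 0, at 0.15 (-0.08 to 0.38), joined under that scaling by Socs3, which was otherwise at -0.13. The median of the 7 was -0.25, beside 0.05 over all loci, with quartiles of -0.18 and 0.26. The intervals of Socs3 and Cish, like that of Socs2, included 0. With PMA in both, 2 of 8 genes were more than 2-fold lower, Lif at -1.38 (-1.43 to -1.34) and Il11 at -1.36 (-2.05 to -0.68), beside 2.75% of all loci lower and 2.19% higher. Il11 was again counted only through the 427 library with PMA. The level of Lif was thus 2.61-fold lower in the library labelled SP2bKD with PMA. The comparisons share their libraries with those of PMA, so these values are not independent of the ones above, and differences between clones cannot be told apart from the knockdown.

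EICD against GFP was the comparison with 1 transfected gene more. Of the 7 genes counted, 1 was more than 2-fold higher, Lif, beside 3.58% of all loci higher and 0.506% lower. These shares are 382 and 54 loci, which became 752 and 24 after scaling without the 10 largest loci. Their median was 0.38, beside 0.07 over all loci, with quartiles of -0.15 and 0.30. Stat3 and Socs3, at 0.0518 and 0.0656, lay close to the median of all loci (0.0670), which the intervals of both included. Stat3 was at -0.01 after division by the median ratio. After Lif the next were Il6st at 0.69 and Osmr at 0.68. These are the receptor chains among the 7 genes, and both were higher in the GFP plus EICD library by less than 2-fold. Receptor chains outside the 10 genes are not part of this count. Il11 had a value of -0.61 (-1.67 to 0.32) at an estimated 24.4 and 16.3 fragments. The comparison rests on 1 transfection of each kind, and EICD and the transfection cannot be told apart.

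**Figure D3:**
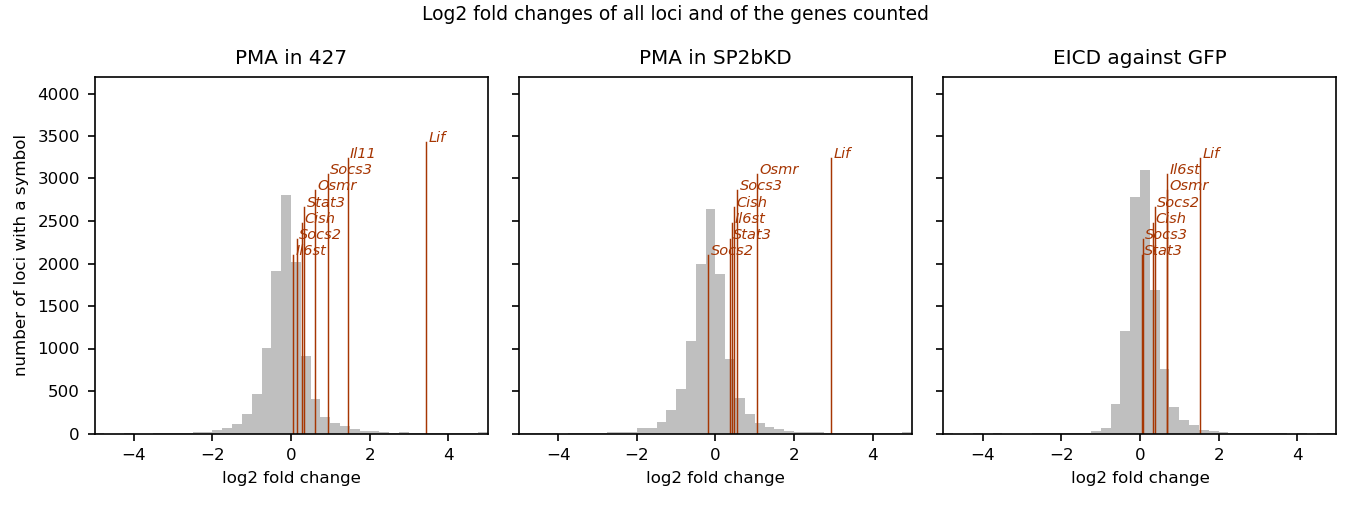
Number of loci with a symbol (grey bars, bins of 0.25) by log2 fold change, where either library reached an FPKM of 1, with brown lines at the genes counted; values past 5 are drawn in the outer bins, and SP2bKD stands for the libraries so labelled. Lif lies in the right tail of all 3 comparisons, at 3.44, 2.94 and 1.53, while the medians of all loci are -0.12, -0.15 and 0.07.

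The wider pathway was followed in 35 other genes, of which 33 were found at an annotated locus and 25 or 26 could be counted in each comparison. Cntf and Jak3 were not found at such a locus. With PMA in 427 cells 1 gene of 26 was more than 2-fold higher and 3 lower, and in the cells labelled SP2bKD 3 were higher and 2 lower, beside the shares of all loci given above. Between the lines none of 25 passed 2-fold with DMSO, beside 3.11% of all loci higher and 2.76% lower. With PMA 1 of 25 was higher, Stat2 at 1.05, beside 2.19% of all loci higher and 2.75% lower. With EICD 1 of 25 was lower, Socs1, beside 3.58% of all loci higher and 0.506% lower. Clcf1, a gp130 ligand that acts through the CNTF receptor, had an FPKM of 20.4 and 51.1 in 427 cells with DMSO and PMA (log2 fold change 1.32) and 22.1 and 38.5 in the libraries labelled SP2bKD (0.80). Its level was above that of Lif in both DMSO libraries and with GFP, and below it in both PMA libraries and with EICD, where its log2 fold change was -0.09. The locus used is the higher of 2 with this symbol. Cntfr, the alpha chain of the CNTF receptor, had 1.30 and 2.77 in the libraries labelled SP2bKD with DMSO and PMA (1.09, or 0.90 after scaling without the 10 largest loci). Osm, the oncostatin M gene, was listed at 0 in every library but that with EICD. Its FPKM there was 0.0166, an estimated 1.00 fragments, and 3 fragments would be an FPKM of 0.0498.

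Stat2, Stat5a and Stat5b were below their DMSO level with PMA in both lines. Stat2, the interferon pathway STAT, had an FPKM of 9.73 and 3.42 in 427 cells with DMSO and PMA (log2 fold change -1.51, interval -1.67 to -1.34) and 15.9 and 7.10 in the libraries labelled SP2bKD (-1.17, -1.28 to -1.05). It was lower with PMA by more than 2-fold in both lines. Stat5a, which drives Cish and Socs2 together with Stat5b, had an FPKM of 1.13 and 0.534 in the libraries labelled SP2bKD with DMSO and PMA (-1.06, or -0.93 after division by the median ratio). After scaling without the 10 largest loci it passed 2-fold with PMA in 427 cells as well, at -1.01 in place of -0.96, and with EICD, at 1.18 in place of 0.90. Stat5a was counted in each of these comparisons only through the library in which it was high. Stat6, the IL-4 pathway STAT, was at 28.1 and 28.2 in 427 cells, nearly the same with and without PMA, and Stat4 was listed at 0 throughout.

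The kinases Jak1, Jak2 and Tyk2 stayed within 2-fold in all 5 comparisons, except Jak1 between the lines with DMSO, which passed it at 1.04 after scaling without the 10 largest loci. Of the 13 other inhibitors, Socs1, which blocks Janus kinases, had an FPKM of 0.796 and 2.65 in the libraries labelled SP2bKD with DMSO and PMA (1.72, 1.31 to 2.16) and 1.23 and 0.439 with GFP and GFP plus EICD (-1.45, -2.09 to -0.89). In each of these comparisons Socs1 was counted only through the library in which it was high. Socs5 had 10.9 and 24.3 in the libraries labelled SP2bKD with DMSO and PMA (1.15, or 0.96 after scaling without the 10 largest loci), whereas Pias3, an inhibitor of STAT3, and Ptpn6, the phosphatase SHP-1, were at -1.20 and -1.18 in 427 cells. Pias3 was at -0.90 in the cells labelled SP2bKD, and at -1.09 after scaling without the 10 largest loci.

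**Figure D4:**
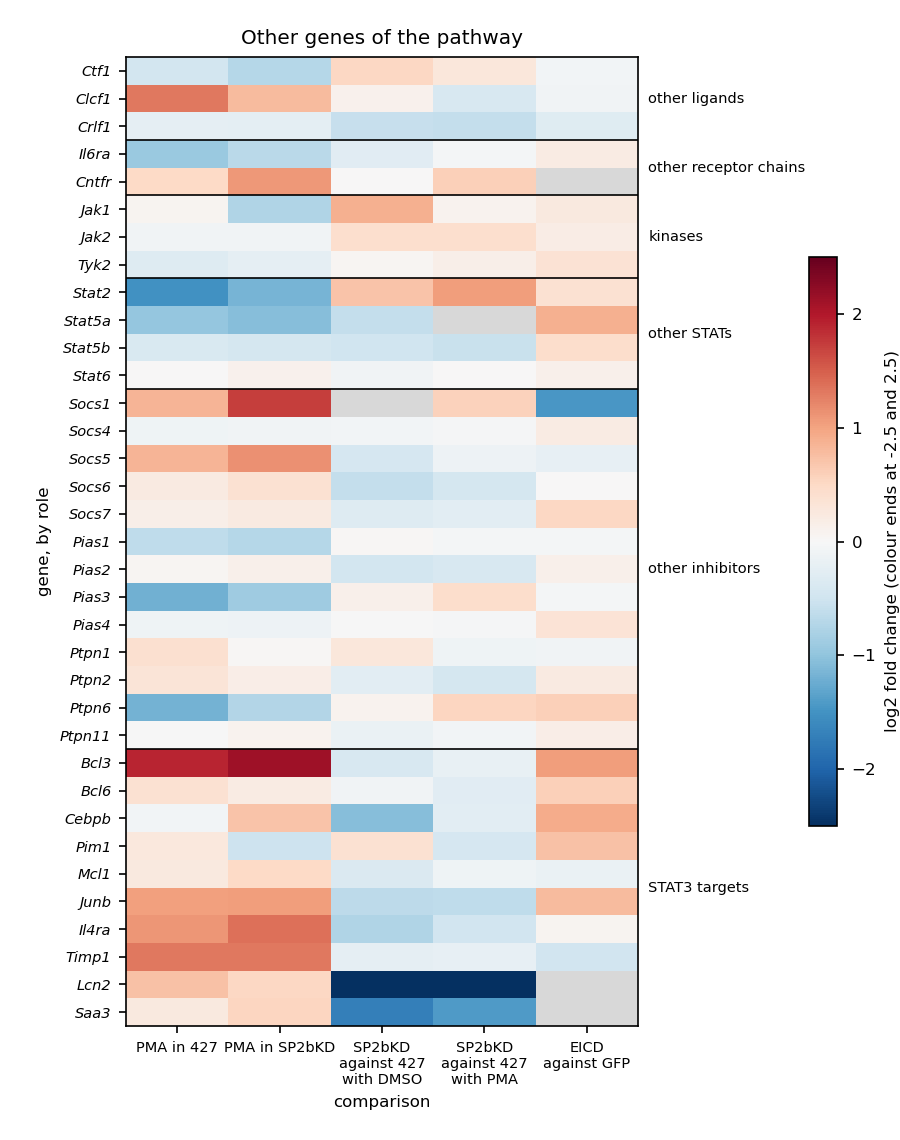
Log2 fold change (colour, ending at -2.5 and 2.5) of the other pathway genes and of known STAT3 targets, by role, in the 5 comparisons, with grey for an FPKM under 1 in both libraries or for a library listed at 0; SP2bKD stands for the libraries so labelled. Bcl3 reaches 1.91 and 2.12 with PMA, Stat2 is at -1.51 and -1.17, and Lcn2 at -2.82 and -3.04 in SP2bKD against 427.

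Of 12 genes known as STAT3 targets, 10 were found, without Cebpd and Icam1, and counted in all comparisons but that of EICD. With PMA 4 of the 10 were more than 2-fold higher in both lines, Bcl3, Junb, Il4ra and Timp1, beside 3.91% and 3.51% of all loci. Junb, an AP-1 subunit, was at 1.02 and 1.04, Il4ra, the IL-4 receptor alpha chain, at 1.11 and 1.38, and Timp1, a metalloprotease inhibitor, at 1.32 and 1.33. After scaling to the same sum without the 10 largest loci, Junb was within 2-fold in both lines, at 0.97 and 0.85. Bcl3, a nuclear IkappaB protein, had an FPKM of 5.89 and 22.1 in 427 cells with DMSO and PMA, 4.44 and 19.4 in the libraries labelled SP2bKD, and 7.81 and 16.2 with GFP and GFP plus EICD, and of the 8 genes of the list counted with EICD it was the one past 2-fold (1.05, 0.87 to 1.23), beside 3.58% of all loci. Lcn2, under an FPKM of 1 in both libraries, and Saa3, listed at 0 with GFP, were not counted there. The value of Bcl3 was 0.99 after division by the median ratio, and under the scaling without the 10 largest loci Cebpb, Pim1 and Junb passed 2-fold as well, at 1.21, 1.00 and 1.07. Several of these genes are also known targets of AP-1 and NF-kappaB. Between the lines 3 were more than 2-fold lower in the library labelled SP2bKD with DMSO (Cebpb at -1.05, or -0.91 under that scaling, Lcn2 and Saa3) and 2 with PMA (Lcn2 and Saa3), beside 2.76% and 2.75% of all loci. The acute phase genes Lcn2 and Saa3 varied along another line. Lcn2 had an FPKM of 14.5 and 24.1 in 427 cells with DMSO and PMA, 2.04 and 2.93 in the libraries labelled SP2bKD, and 0.0489 and 0.534 with GFP and GFP plus EICD. Saa3 had 24.4, 29.01, 7.47, 10.9, 0 and 4.33 in the same order, the last an estimated 63.7 fragments. Both were highest in 427 cells and lowest in the transfected libraries, where Socs3 was highest.

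The genes whose profile over the 6 libraries lay nearest to that of Lif were Cxcl5, Il1a, Cxcl10, Vegfa and Ereg. Nearness was the root mean square difference of log2(FPKM + 0.01), each gene centred on its own mean, among 11061 loci with a symbol that reached an FPKM of 1 in any library. It was 0.15 for Cxcl5, a neutrophil chemokine whose FPKM was 21.8, 195.4, 8.98, 88.3, 40.9 and 100.6 in the order above, and 0.37 for Ereg, an EGF receptor ligand. Il1a is an inflammatory cytokine, Cxcl10 a chemokine of T cells and Vegfa a growth factor of blood vessels. The likeness of these profiles to that of Lif is what chose the genes. For Socs3 the nearest were Tmc7 (0.17), Serpina3i, Tmprss11b, Klf6 and Ankk1 (0.27). Klf6, a zinc finger transcription factor, had 26.9, 38.1, 29.2, 37.5, 79.1 and 122.3. The profiles rest on 6 single libraries.

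**Figure D5:**
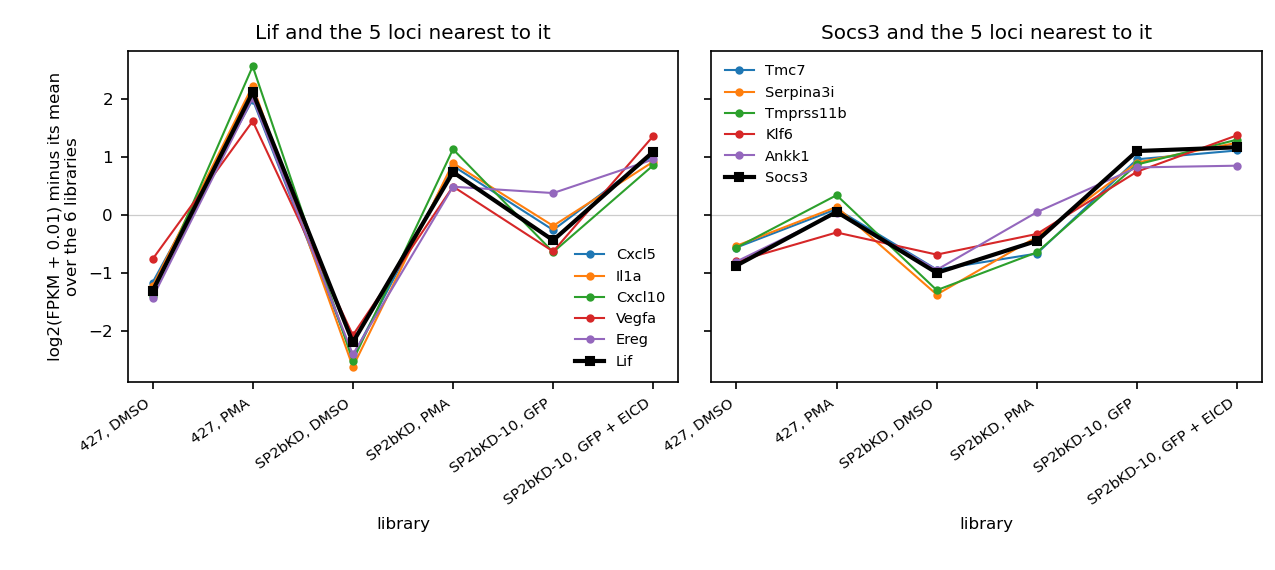
Log2(FPKM + 0.01) minus its mean over the 6 libraries, for Lif (left, black) and Socs3 (right, black) with the 5 loci nearest to each in colour; the root mean square difference runs from 0.15 to 0.37 on the left and from 0.17 to 0.27 on the right. The Lif group peaks in 427 cells with PMA, and the Socs3 group in both transfected libraries; SP2bKD stands for the libraries so labelled.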

How the data were processed

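The deposited values are FPKM, 1 per locus and library. The authors made paired-end libraries from poly(A) RNA, aligned the reads with TopHat 2.1.1 and computed FPKM with Cufflinks and Cuffdiff 2.1.1 on GRCm38 (the submitters' processing notes also list STAR 2.4.0b), with gene models that include newly assembled isoforms. FPKM depends on these models and on the normalization by Cuffdiff.

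Log2 fold changes were computed with 0.01 added to both libraries, or for EICD to the GFP plus EICD library only, where GFP had at least 0.01. Counts took genes that reached an FPKM of 1 in either library, with a 2-fold limit. Adding 0.001, as the authors did for EICD, was an alternative. No p-value was computed. Fragments were estimated as FPKM times the longest APPRIS principal transcript (GENCODE M21) times the depth, which was read from the FPKM of single fragments at loci with 1 transcript of over 2500 bases. The depth estimate and counts were tested on simulated data. The 10 genes and the lists were chosen with earlier results of these data known. The genes named are the 10, listed pathway and STAT3 target genes past 2-fold in any comparison, the targeted and transfected genes, and the 5 loci nearest to Lif and Socs3. Stat4, Stat5b, Stat6, Osm, Krt8, Krt14, Krt18, the macrophage markers and the Janus kinases were named after their values were seen. One listed gene is not reported here. Python 3.11.15, NumPy 2.4.6, pandas 2.3.3, SciPy 1.17.1 and matplotlib 3.10.9 were used.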

Additional observations from a re-analysis of the deposited data

Results flagged for a closer look

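Socs2 was flagged because its PMA effect had opposite signs in the lines, with a log2 fold change of 0.15 in 427 cells (interval for counting error -0.08 to 0.38) and of -0.18 in the cells labelled SP2bKD (-0.41 to 0.04). Both intervals include 0, each rests on 1 library per condition, and the difference was not tested.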

How the results depend on the processing

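Alternatives left the direction of every 2-fold call among the 10 genes as it was. Lif stayed between 3.33 and 3.54 with PMA in 427 cells, 2.75 and 3.08 in the cells labelled SP2bKD, -1.41 and -1.37 between the lines with PMA, and 1.47 and 1.81 with EICD. With 1 added to both libraries or a minimum FPKM of 10, the genes higher with PMA numbered 1 in each line (Lif) in place of 2, those lower in SP2bKD with PMA 1 in place of 2, and those lower in SP2bKD with DMSO 0 in place of 1. Scaling to the same sum without the 10 largest loci gave 1 gene higher with PMA in SP2bKD and 0 lower in SP2bKD with DMSO, and moved the median of all loci by -0.19, 0.15 and 0.28 for PMA in SP2bKD, SP2bKD against 427 with DMSO and EICD. Without a filter on low values 1 gene was lower with PMA in 427 cells (Lifr), 1 higher in SP2bKD with PMA (Lifr) and 2 lower in SP2bKD with DMSO (Il6 and Osmr). That setting also added Il6 to the genes higher with PMA in each line (3 in place of 2) and lower in SP2bKD with PMA (3 in place of 2). Of 282 recomputed log2 fold changes, 3 changed sign, those of Lifr and Socs3 between the lines with DMSO and of Stat3 with EICD. Over all loci the number more than 2-fold higher and lower ran, from a minimum FPKM of 10 or 1 added to no filter, from 241 to 1415 and 114 to 1877 with PMA in 427 cells (416 and 497 as reported), 232 to 1342 and 197 to 2018 in SP2bKD (373 and 605), 116 to 1515 and 76 to 1660 between the lines with DMSO (333 and 295), 52 to 1355 and 84 to 1643 with PMA (230 and 289), and 122 to 1303 and 15 to 751 with EICD (382 and 54). No paired analysis was possible because each condition has 1 library. Depth limits Il6, Lifr and Il11.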
